A study of Mus musculus with 8 samples.

Results

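The mitochondrial ribosomal protein genes encode the nuclear-made proteins of the ribosome that works inside mitochondria. They were taken as the protein-coding genes of the mm10 annotation whose symbol is Mrpl or Mrps followed by a number, without Mrpl23, and numbered 77 of 21887 protein-coding genes. Round them ChIPmentation, in which chromatin is tagmented while the antibody holds it, mapped H3K27ac, the histone acetylation that marks active promoters and enhancers. The cells were satellite cells, the stem cells of skeletal muscle, of the mouse strain C57BL/6. Activated satellite cells (ASC) were isolated 2.5 days after the muscle was injured with BaCl2, which kills muscle fibres and starts regeneration. Cells labelled as freshly isolated (FISC) were taken from untreated muscle. Each condition had 2 H3K27ac libraries with 1 peak list each, and the labels do not say whether they came from separate animals, so that p-values measure only the spread between these libraries. Freshly isolated cells are not a perfect model of quiescence, since they pass through tissue dissociation before the chromatin is taken.

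Mitochondrial ribosomes translate the few messenger RNAs of mitochondrial DNA, all of them for subunits of the respiratory chain and the ATP synthase. Their proteins are encoded in the nucleus, made in the cytosol and imported. Many have a counterpart in the bacterial ribosome from which the organelle's ribosome descends, and others occur in mitochondria alone. Satellite cells are known to leave quiescence with few mitochondria and to enlarge their mitochondrial mass as they prepare to divide. Members were grouped by subunit and by whether the protein has a bacterial counterpart, with 28 and 22 genes for the large subunit and 16 and 10 for the small one. Mrps36 stood apart, because its product is now known as a component of the 2-oxoglutarate dehydrogenase complex.

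The promoters of 68 members were listed in RefSeq (GRCm38.p6, the assembly of mm10), each from 250 bases before to 50 bases after the annotated start. Among members covered by peaks in all 4 libraries and listed there, Mrps7 and Mrpl51 had the largest gains of acetylated length, and Mrpl20 and Mrpl9 the smallest differences. Their promoters are shown as examples from both ends of the range, and whether sequence bears on the difference was not tested. Capitals mark matches, on either strand, to the core motifs of NRF1 (GCGCANGCGC), ETS factors such as GABP (CCGGAAG), YY1 (AAGATGGC), Sp1 (GGGCGG) and the E-box (CACGTG). NRF1 and GABP are the classical regulators of nuclear genes for mitochondrial proteins. The stretches lie at chr11:115603890-115604189 for Mrps7, chr6:125191950-125192249 for Mrpl51, chr4:155802628-155802927 for Mrpl20 and chr3:94443086-94443385 for Mrpl9, all on the plus strand.
Mrps7: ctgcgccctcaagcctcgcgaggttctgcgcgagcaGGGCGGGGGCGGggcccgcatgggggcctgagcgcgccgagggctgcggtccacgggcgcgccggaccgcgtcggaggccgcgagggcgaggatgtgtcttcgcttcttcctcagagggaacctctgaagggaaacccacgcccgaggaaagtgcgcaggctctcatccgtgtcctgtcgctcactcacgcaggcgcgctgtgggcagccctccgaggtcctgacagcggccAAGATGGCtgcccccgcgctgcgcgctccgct
Mrpl51: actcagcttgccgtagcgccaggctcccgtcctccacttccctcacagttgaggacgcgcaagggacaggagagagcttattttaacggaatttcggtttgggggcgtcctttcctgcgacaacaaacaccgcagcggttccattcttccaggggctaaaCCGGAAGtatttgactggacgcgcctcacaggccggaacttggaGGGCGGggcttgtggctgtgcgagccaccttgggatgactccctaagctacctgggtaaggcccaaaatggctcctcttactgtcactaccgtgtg
Mrpl20: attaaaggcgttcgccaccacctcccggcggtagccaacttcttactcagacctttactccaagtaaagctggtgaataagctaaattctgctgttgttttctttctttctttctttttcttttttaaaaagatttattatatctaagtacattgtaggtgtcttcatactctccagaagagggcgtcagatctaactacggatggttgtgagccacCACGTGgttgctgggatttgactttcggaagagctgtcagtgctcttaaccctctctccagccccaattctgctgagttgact
Mrpl9: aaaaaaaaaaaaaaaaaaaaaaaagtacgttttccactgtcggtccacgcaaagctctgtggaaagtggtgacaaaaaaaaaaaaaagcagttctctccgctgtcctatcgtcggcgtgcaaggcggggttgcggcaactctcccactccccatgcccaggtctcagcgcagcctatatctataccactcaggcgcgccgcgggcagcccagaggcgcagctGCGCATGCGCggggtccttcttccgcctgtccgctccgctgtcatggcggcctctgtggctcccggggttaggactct

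The promoter of Mrps7 held 1 YY1 match and 2 adjoining Sp1 matches, that of Mrpl51 held 1 ETS and 1 Sp1 match, that of Mrpl20 held 1 E-box and that of Mrpl9 held 1 NRF1 match. Of the 68 listed promoters of mitochondrial ribosomal protein genes, 36.8% held the ETS core, against 11.9% of all 17492 listed promoters and 19.5% of the 9258 whose gene was covered in all 4 libraries. The NRF1 core stood in 19.1% of the members' promoters, against 6.60% of all promoters and 11.2% of those of covered genes. For YY1 the shares were 17.6% of members, against 3.22% and 4.93%. At least 1 of these 3 motifs was found in 61.8% of the members' promoters, against 19.5% of all promoters and 31.7% of those of covered genes. The Sp1 core was in 48.5% of members, between the 46.3% of all promoters and the 66.9% of covered genes. The E-box, which MYC binds, was in 7.35% of members, against 7.90% and 10.5%. A match describes letters in the window and does not show that a factor bound there. The median GC content was 58.2% in the members' promoters, 56.3% in all promoters and 61.3% in those of covered genes.

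Nearly all members carried H3K27ac in both conditions. Level here means the kb under peaks within 2 kb of either end of the gene, and 75 of the 77 members (97.4%) had a peak there in all 4 libraries, against 11455 of all 21887 genes (52.3%). Over the 76 members covered in at least 2 libraries, the level averaged over the 2 libraries had a median of 1.56 kb in ASC and 1.22 kb in FISC, with a range of 0.046 to 5.28 kb in ASC and of 0 to 4.15 kb in FISC. In ASC 20 members had 2 kb or more, 50 had between 1 and 2 kb, and 6 had less than 1 kb. In FISC these counts were 10, 42 and 24. Levels under 1 kb were more frequent in FISC.

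The acetylated length was greater in ASC at most members, by an amount close to that of genes in general. Summed over members it was 126.7 and 141.7 kb in the ASC libraries, against 102.8 and 100.7 kb in the FISC libraries. Both ASC libraries exceeded both FISC libraries at 54 of 76 members (71.1%), where 62.1% of all 12924 genes tested did so. The reverse held at 2 members, Mrps28 and Mrpl55, where 11.0% of all genes did so, and the libraries overlapped at 20. With limma across all genes tested, 20 members rose (26.3%) at an adjusted p under 0.05, and the share of all genes that rose was 26.5%. No member fell, against 3.61% of all genes. At an unadjusted p under 0.05 limma had 35 members higher and 1 member, Mrps28, lower in ASC, and without the trend or with a replicate block it likewise called 0 falls. The median difference was 0.382 kb over members (quartiles 0.168 and 0.519 kb), against 0.304 kb over all genes tested (quartiles 0.050 and 0.625 kb). A longer acetylated stretch in bulk chromatin does not tell more acetylation per cell from more cells that carry it.

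The lists of the 2 conditions differ in total length, which bears on every value given here. Peaks covered 49.2 and 57.7 Mb in the ASC libraries, against 34.4 and 33.7 Mb in the FISC libraries, and list length and condition cannot be told apart. When the covered kb was divided by each library's total, 1 member rose (Mrpl38) and 20 members fell, against 9.19% and 36.6% of all genes, and the median difference became -0.251 kb over members and -0.345 kb over all genes. Mrpl49, Mrpl36, Mrps6, Mrpl12, Mrpl32 and Mrpl37, which are among the 20 rises, then had a difference below 0, and none of the 20 was called a fall. When each list was instead cut to its strongest peaks at the same covered length, 16 of the 20 rises remained, no other member rose and none fell, where 15.8% of all genes rose and 13.1% fell, with a median difference of 0.338 kb over members and 0.186 kb over all genes. Within a condition, ASC replicate 2 had the higher level at 60 of 76 members, and FISC replicate 2 at 33 of 76. The gap between the 2 libraries had a median of 0.200 kb in ASC and 0.110 kb in FISC. Leaving out 1 library and taking the lone one to vary like the rest gave 23 rises without ASC replicate 1, of which 12 were among the 20. It gave 6 without ASC replicate 2, 3 without FISC replicate 1 and 2 without FISC replicate 2, all among the 20. Of all genes 28.6, 15.3, 6.58 and 5.35% rose in these fits.

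**Figure D1:**
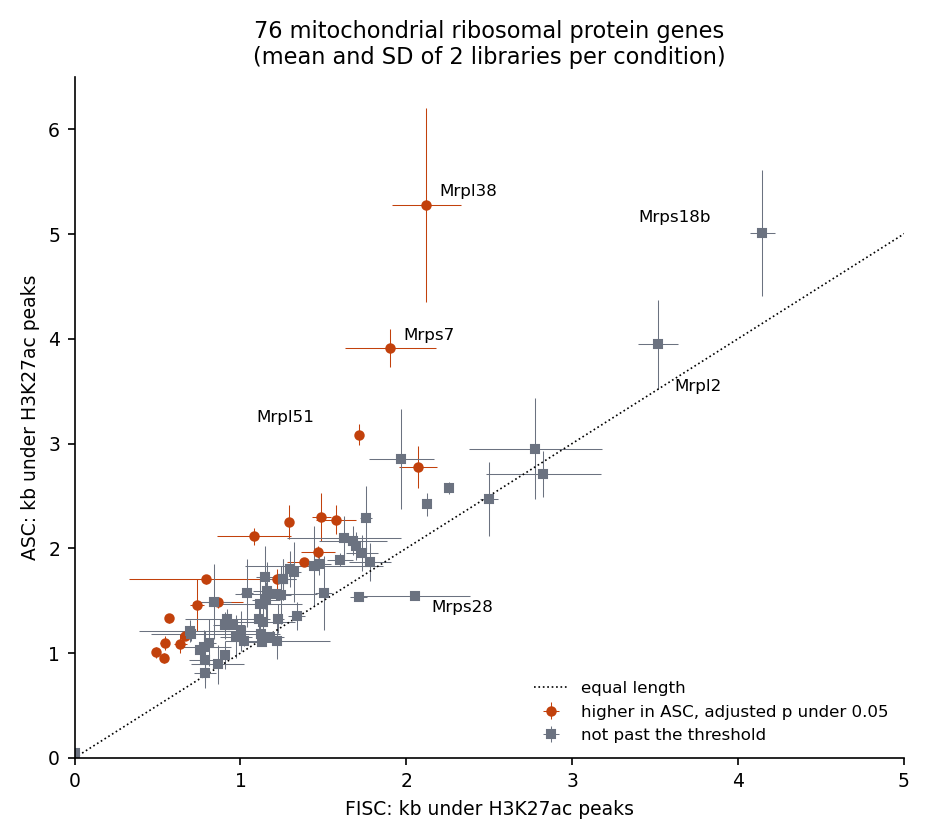
Mean kb under H3K27ac peaks in ASC (vertical axis) against FISC (horizontal axis) at 76 mitochondrial ribosomal protein genes, with bars of 1 SD over 2 libraries and a dotted line of equal length. Most members lie between 1 and 2 kb in ASC and above the line, and Mrpl38, Mrps7 and Mrpl51 stand farthest above it.

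Among the 28 genes for large subunit proteins with a bacterial counterpart, 6 rose (Mrpl13, Mrpl36, Mrpl19, Mrpl12, Mrpl32 and Mrpl35), with a median difference of 0.382 kb. Mrpl13 (chr15:55534095-55557312) had 2.06 and 2.17 kb in ASC, against 0.922 and 1.24 kb in FISC. All of it lay at one gene end, and the difference of 1.04 ± 0.160 kb (SE) passed the test (limma, adjusted p = 0.0121). Mrpl36 had 2.63 and 2.92 kb in ASC, against 2.15 and 1.99 kb in FISC, and the difference was 0.707 ± 0.168 kb (limma, adjusted p = 0.0357). Its windows take in an end of Ndufs6, a gene for a subunit of respiratory complex I. Neither end of Mrpl36 passed the test by itself (limma, adjusted p = 0.228 at the first end on its strand and 0.0508 at the other end). The peak counted at that other end is the one that covers its RefSeq start. The window round the RefSeq start did not pass either (limma, adjusted p = 0.0810). Mrpl19 had short domains, 0.972 and 1.04 kb in ASC against 0.475 and 0.508 kb in FISC, and the difference was 0.516 ± 0.0983 kb (limma, adjusted p = 0.0208). Mrpl12, whose product also binds the mitochondrial RNA polymerase, had 2.00 and 1.92 kb in ASC, against 1.54 and 1.39 kb in FISC (limma, adjusted p = 0.0465). In each of these genes the libraries of the conditions did not overlap. The windows of Mrpl13, Mrpl19 and Mrpl12 also hold an end of Mtbp, Gcfc2 and Hgs, respectively.

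The same group held 4 of the 5 members with the smallest differences. Mrpl20, needed for assembly of the large subunit in bacteria, had 1.26 and 1.44 kb in ASC, against 1.38 and 1.30 kb in FISC, and the difference was 0.015 ± 0.130 kb (limma, adjusted p = 0.940). Mrpl9 had 1.08 and 1.14 kb in ASC, against 1.06 and 1.20 kb in FISC. Mrpl17 had 1.13 and 1.18 kb in ASC, against 1.12 and 1.24 kb in FISC. Mrpl4, which in bacteria lines the tunnel through which the new protein leaves, had 0.875 and 0.751 kb in ASC, against 0.834 and 0.740 kb in FISC. At these 4 genes the libraries of the conditions overlapped. Divided by total covered length, Mrpl20, Mrpl9 and Mrpl17 were called lower in ASC (differences of -0.610, -0.543 and -0.566 kb, limma, adjusted p = 0.0153, 0.0241 and 0.0210), while Mrpl4 was not (-0.337 kb, adjusted p = 0.0742).

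Of the 22 genes for large subunit proteins found in mitochondria alone, 6 rose (Mrpl38, Mrpl51, Mrpl45, Mrpl49, Mrpl44 and Mrpl37), with a median difference of 0.326 kb. Mrpl38 (chr11:116131817-116138868) had 4.63 and 5.94 kb in ASC, against 2.27 and 1.97 kb in FISC. The difference of 3.16 ± 0.458 kb was the largest of all members (limma, adjusted p = 0.0106), and it was the member whose ASC libraries lay farthest apart. Both of its ends contributed, with means of 3.10 kb in ASC and 1.31 kb in FISC at the end covered more (limma, adjusted p = 0.00456), and of 2.18 kb in ASC and 0.816 kb in FISC at the other end (limma, adjusted p = 0.0485). The end covered more is the one beside Trim65, and since no strand was listed for Mrpl38, which end is its start was not determined. The call was lost at equal covered length (limma, adjusted p = 0.216). Mrpl51 (chr6:125192200-125194392) had 3.01 and 3.15 kb in ASC, against 1.71 kb in both FISC libraries, and its difference of 1.37 ± 0.139 kb had the smallest adjusted p of the members (limma, 0.00487). The start of the condensin gene Ncapd2, on the other strand, lies 613 bases from its own, whose promoter is shown above. Mrpl45, which in human cells holds the ribosome at the inner membrane, had 1.67 and 1.74 kb in ASC, against 1.12 and 0.466 kb in FISC, and the spread within FISC was large beside the difference of 0.909 ± 0.239 kb (limma, adjusted p = 0.0456). The call was lost at equal covered length (limma, adjusted p = 0.0692), and 7 of 19 other settings kept it. Over all 19 settings the adjusted p of limma lay between 0.00296 and 0.267. Mrpl41 had 2.23 and 2.72 kb in ASC, against 2.54 and 2.46 kb in FISC, with overlapping libraries (difference -0.025 kb, limma, adjusted p = 0.936, and -1.19 kb with adjusted p = 0.00514 after division by total covered length). Mrpl55 was lower in both ASC libraries, 1.51 and 1.55 kb, than in the FISC libraries, 1.75 and 1.68 kb, without passing the test (limma, adjusted p = 0.299).

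Of the 16 genes for small subunit proteins with a bacterial counterpart, 7 rose (Mrps7, Mrps12, Mrps18c, Mrps6, Mrps10, Mrps9 and Mrps14), and the median difference was 0.507 kb. Mrps7 (chr11:115604140-115608036), a protein of the head of the small subunit that in bacteria helps to fold the ribosomal RNA, had 4.04 and 3.78 kb in ASC, against 1.71 and 2.10 kb in FISC. Its difference was 2.01 ± 0.205 kb (limma, adjusted p = 0.00493). A difference of 1.27 kb came from the far end of the gene, which had 1.59 and 0.955 kb under peaks in ASC and none in either FISC library (limma, adjusted p = 0.0270) and beside which lies Mif4gd. At the start, with the promoter shown above, Mrps7 had 2.44 and 2.83 kb in ASC, against 1.71 and 2.10 kb in FISC, which did not pass the test (limma, adjusted p = 0.0529), and the call was also lost at equal covered length (limma, adjusted p = 0.0785). Mrps12, which monitors the pairing of codon and anticodon, had 2.13 and 2.36 kb in ASC, against 1.30 and 1.29 kb in FISC (difference 0.955 ± 0.141 kb, limma, adjusted p = 0.0111). Mrps18c had 1.28 and 1.63 kb in ASC, against 0.767 and 0.708 kb in FISC (difference 0.720 ± 0.157 kb, limma, adjusted p = 0.0287). Mrps28, the member with the lowest difference, belongs here too. It had 1.51 and 1.57 kb in ASC, against 2.29 and 1.82 kb in FISC, and the libraries did not overlap, but the difference of -0.510 ± 0.194 kb did not pass the test (limma, adjusted p = 0.104).

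Of the 10 genes for small subunit proteins found in mitochondria alone, 9 were tested and 1 rose, Mrps22, with a median difference of 0.306 kb. Mrps22 (chr9:98588730-98601679), in which human mutations cause a mitochondrial disease of infancy, had 1.36 and 1.30 kb in ASC, against 0.576 and 0.559 kb in FISC. The replicates lay close together in both conditions, and the difference was 0.763 ± 0.105 kb (limma, adjusted p = 0.00918). Mrps18b had the highest FISC level of all members, and its difference did not pass the test, with 4.59 and 5.44 kb in ASC and 4.20 and 4.09 kb in FISC (limma, adjusted p = 0.104). Its windows also hold ends of Ppp1r10 and Atat1. Mrps36, outside the ribosome, had 1.26 and 1.39 kb in ASC, against 0.739 and 1.10 kb in FISC (limma, adjusted p = 0.118). Beside the counts of rises in the role groups stands the 26.5% of all genes tested that rose. Whether the role groups differ from each other was not tested.

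**Figure D2:**
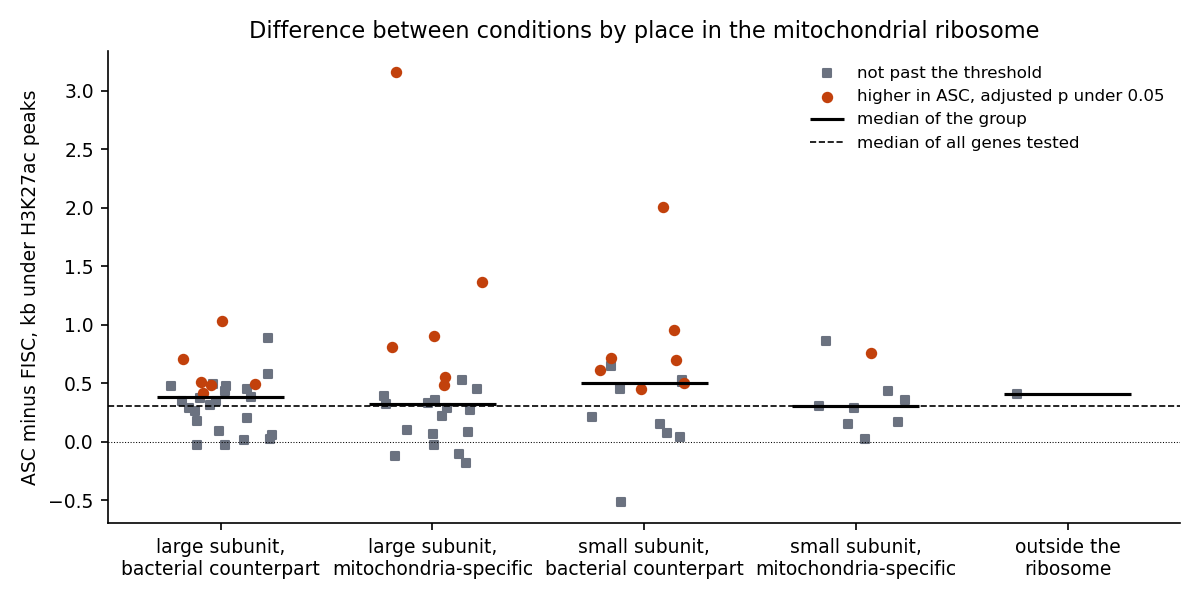
Difference in kb under H3K27ac peaks, ASC minus FISC, for each mitochondrial ribosomal protein gene, by place in the ribosome, with the median of each group (solid bar) and of all genes tested (dashed line). The 4 ribosomal groups have medians between 0.306 and 0.507 kb, against 0.304 kb over all genes, and all 20 genes past the threshold lie above 0.

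**Figure D3:**
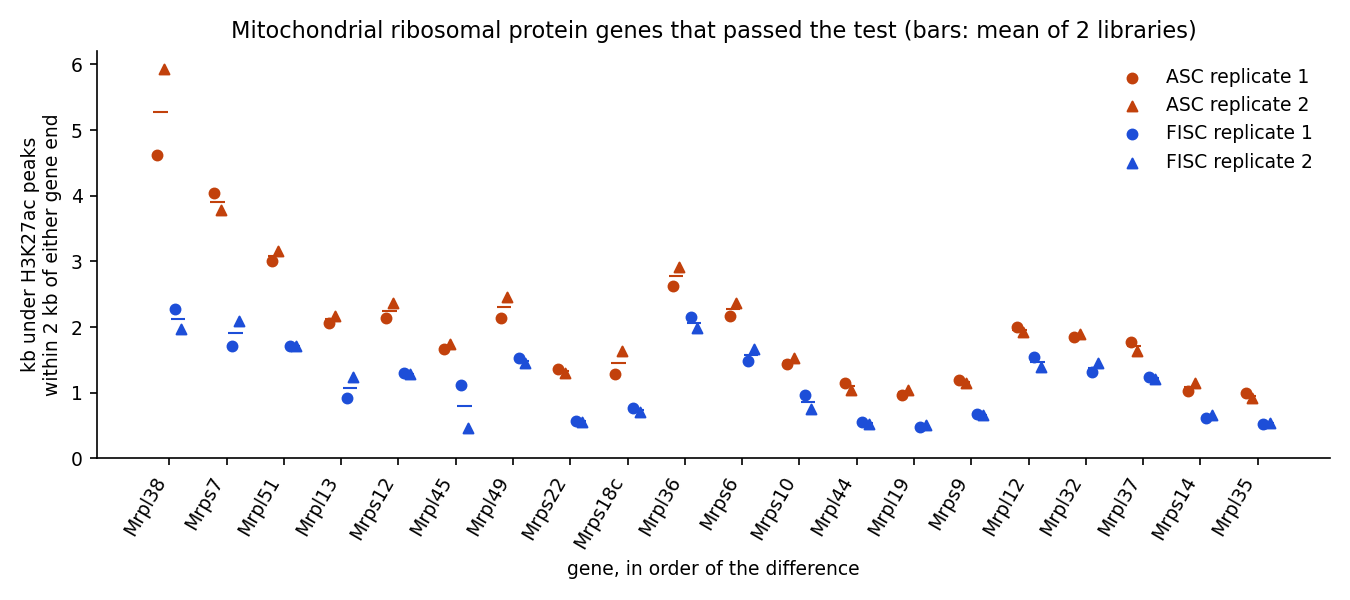
Level (kb under H3K27ac peaks within 2 kb of either gene end) in each library for the 20 mitochondrial ribosomal protein genes that rose, in order of the difference, with short bars for the mean of 2 libraries. At every gene both ASC libraries lie above both FISC libraries, most of the genes stay under 3 kb, and Mrpl38 and Mrpl45 show the widest spread within a condition.

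A pair of members owe low values to where their annotated ends lie. Mrps23 (chr11:88194106-88211507) had no peak within 2 kb of either gene end in any library, and Mrps2 (chr2:28465951-28471177) had 0.065 and 0.027 kb in ASC and none in FISC. Within 2 kb of the RefSeq start, which for both lies farther inside the gene, Mrps23 had 1.70 and 1.78 kb in ASC, against 1.77 and 1.72 kb in FISC. That is a difference of -0.007 kb (limma, adjusted p = 0.972). Mrps2 had 1.00 and 1.25 kb there in ASC, against 0.590 and 0.720 kb in FISC, just outside the threshold (limma, adjusted p = 0.0503). All 68 members with a listed start therefore had acetylated chromatin within 2 kb of it in all 4 libraries.

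The peaks at these starts ranked high by enrichment among all peaks of a list, and peaks at the starts of other genes were not ranked beside them. In both conditions the strongest peak within 2 kb of the start stood high in its own list by the authors' fold enrichment, at a median percentile of 87.0 and 88.8 in the ASC libraries, against 87.6 and 87.0 in the FISC libraries. Its median width was 1362 and 1629 bases in the ASC libraries, against 1114 and 1076 bases in the FISC libraries. The start itself lay inside a peak at 65 and 68 of the 68 members in ASC, against 63 and 56 in FISC. Of the 4 starts printed above, that of Mrpl20 lay inside a peak in ASC replicate 2 alone. The summit of its strongest peak was 939 and 878 bases downstream in ASC, against 942 and 924 bases in FISC. These summits lie outside the printed stretch. A single peak made up the acetylated stretch at 62 and 58 members in ASC and at 63 and 59 in FISC. The summit was downstream of the start at 53 members in each ASC library, against 52 and 49 in the FISC libraries.

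Coverage round the starts fell off sharply on both sides. At 300 bases downstream of the start, all 68 members lay under a peak in ASC replicate 1 and 98.5% in ASC replicate 2, against 98.5% in each FISC library. At 1000 bases downstream the shares were 25% and 36.8% in ASC, against 7.35 and 10.3% in FISC. Over the 9258 listed genes covered in all 4 libraries they were 45.0 and 52.4% in ASC, against 33.1 and 32.9% in FISC, higher than over the members in each library. At 1000 bases upstream the members' shares were 19.1 and 23.5% in ASC, against 10.3 and 13.2% in FISC. These shares share libraries, and the difference between members and other genes was not tested.

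**Figure D4:**
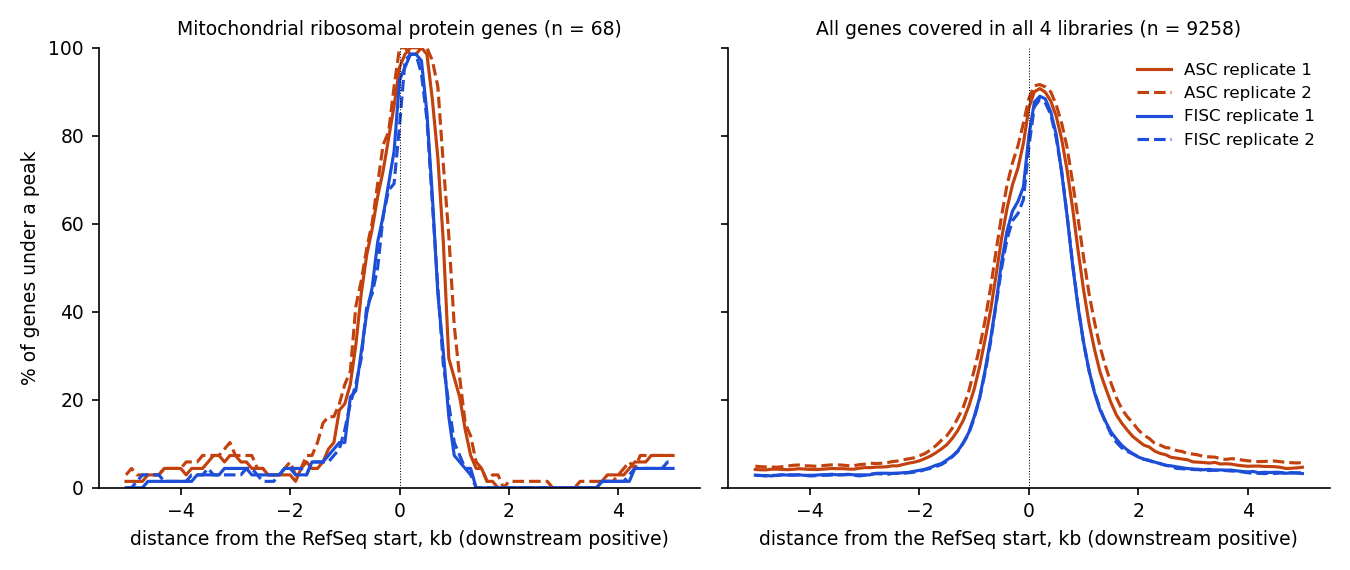
Share of genes under an H3K27ac peak (vertical axis, %) by distance from the RefSeq start (horizontal axis, kb, downstream positive) in each library, for 68 mitochondrial ribosomal protein genes (left) and 9258 genes covered in all 4 libraries (right). The ASC curves lie outside the FISC curves on both sides of the start, and the members' curves reach 0.00% in both FISC libraries at 1500 bases downstream.

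Split at the start, the acetylated length was greater in ASC on both sides. Upstream the median over members was 0.632 and 0.659 kb in the ASC libraries, against 0.478 and 0.429 kb in the FISC libraries. Upstream 5 of 66 members tested rose, Mrpl51, Mrps12, Mrpl49, Mrpl10 and Mrpl24, where 11.4% of all genes rose, and the median difference was 0.134 kb over members and 0.114 kb over all genes. Downstream the median was 0.826 and 0.957 kb in ASC, against 0.660 and 0.663 kb in FISC. Downstream 7 of 68 members rose, Mrpl51, Mrpl45, Mrpl14, Mrps22, Mrpl44, Mrps9 and Mrps14, where 12.7% of all genes rose, and the median difference was 0.222 kb over members and 0.157 kb over all genes. Mrpl51 passed on both sides. At Mrps22 the gain lay downstream, with means of 1.17 kb in ASC and 0.436 kb in FISC (limma, adjusted p = 0.0140), while the upstream means were 0.157 kb in ASC and 0.131 kb in FISC (limma, adjusted p = 0.788). At Mrps12 it lay upstream, towards the neighbouring gene, with means of 1.28 kb in ASC and 0.549 kb in FISC (limma, adjusted p = 0.0270), and the downstream means of 0.965 kb in ASC and 0.745 kb in FISC did not pass (limma, adjusted p = 0.0939). Neither gene was tested for a difference between the sides.

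Mitochondrial ribosomal protein genes often share their promoter with a gene on the other strand, as housekeeping genes often do. Of the 68 with a listed start, 23 (33.8%) had a start on the other strand within 1 kb upstream, against 7.75% of all listed genes and 13.8% of those covered in all 4 libraries. Another gene's end fell in the windows of 50 of the 77 members (64.9%), against 32.2% of all genes and 46.3% of those covered in all 4 libraries. Mrps12 faces Sars2, the mitochondrial seryl-tRNA synthetase, over 146 bases. Mrpl49 faces Fau, which encodes a protein of the cytosolic ribosome, over 191 bases. Mrps18c faces the helicase gene Helq over 158 bases, and Mrps7 faces Gga3, a gene for a Golgi adaptor, over 223 bases. Mrpl46 and Mrps11, of the large and the small subunit, face each other over 41 bases, and both have the same 1.57 and 1.84 kb in ASC, against 1.20 and 1.31 kb in FISC (limma, adjusted p = 0.0781), so that they are 1 measurement counted for 2 members. Of the 49 tested members with another gene's end in their windows 16 rose, with a median difference of 0.452 kb, and of the 27 without one 4 rose, with a median of 0.276 kb. Over all genes tested 26.5% rose, and members with and without such an end were not tested against each other. Peaks in a shared window cannot be assigned to 1 of the genes.

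The motif classes of the promoters are given with their differences as a description. Of the 12 members with a YY1 match 7 rose (median difference 0.467 kb), and of the 56 without one 10 rose (0.359 kb). For NRF1 the counts were 5 of 13 with a match (0.434 kb) and 12 of 55 without (0.361 kb). For the ETS core they were 4 of 25 (0.313 kb) and 13 of 43 (0.417 kb). For Sp1 they were 11 of 33 (0.484 kb) and 6 of 35 (0.293 kb), and for the E-box 3 of 5 (0.484 kb) and 14 of 63 (0.361 kb). Of all genes tested 26.5% rose, and the share among other genes with the same motifs was not counted. One gene can belong to several classes, and no difference between classes was tested.

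Among other genes of mitochondrial translation rises and no falls were called, where 26.5% of all genes tested rose and 3.61% fell. Of 5 mitoribosomal proteins with other symbols 3 rose, with a median difference of 0.730 kb. Among them Gadd45gip1 had 2.90 and 3.96 kb in ASC, against 2.10 and 1.94 kb in FISC (limma, adjusted p = 0.0449), and Chchd1 had 2.65 and 3.03 kb in ASC, against 1.70 and 1.58 kb in FISC (limma, adjusted p = 0.0114). Of 13 translation factors 4 rose and 0 fell (median 0.348 kb), led by Mtrf1l, a release factor, and Mtif2, the initiation factor that brings the first tRNA. Mtrf1l had 2.03 and 1.98 kb in ASC, against 1.15 and 1.52 kb in FISC (limma, adjusted p = 0.0419), and Mtif2 had 1.97 and 2.14 kb in ASC, against 1.58 and 1.49 kb in FISC (limma, adjusted p = 0.0454). Of 24 assembly factors tested 6 rose (median 0.350 kb). Ddx28, an RNA helicase for assembly of the large subunit, had 2.62 and 2.81 kb in ASC, against 1.23 kb in each FISC library (limma, adjusted p = 0.00413), and Mrm1, an RNA methyltransferase, had 2.08 and 1.95 kb in ASC, against 1.25 and 1.14 kb in FISC (limma, adjusted p = 0.0129).

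Of 17 mitochondrial tRNA synthetases 5 rose (median 0.382 kb). One of these is Sars2, whose windows hold the same peaks as those of Mrps12, so that 1 measurement counts in both lists. Tars2, for threonine, had 1.44 and 2.24 kb in ASC, against 0.614 and 0.600 kb in FISC (limma, adjusted p = 0.0310). Of 11 genes that copy or transcribe mitochondrial DNA or keep its RNA 3 rose (median 0.353 kb). They include Mgme1, a nuclease of mitochondrial DNA replication, with 2.64 and 2.97 kb in ASC, against 1.65 and 1.44 kb in FISC (limma, adjusted p = 0.00988), and Slirp, which stabilises mitochondrial messenger RNA, with 2.82 and 2.76 kb in ASC, against 1.62 and 1.63 kb in FISC (limma, adjusted p = 0.00587). Of 8 regulators tested, among them Nrf1, Gabpa, Yy1 and Myc, 0 were called by limma, with 1 higher in ASC at an unadjusted p under 0.05 and a median difference of 0.440 kb. In these 6 lists 0 genes fell, where 3.61% of all genes tested fell and 26.5% rose. After division by total covered length 1, 2, 8, 3, 1 and 5 genes of the lists, in the order given, were called lower. Called higher were 1 assembly factor and 1 tRNA synthetase. Of all genes 36.6% were then lower and 9.19% higher.

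Set beside 2 related classes, the mitochondrial ribosomal protein genes had the lower median level in each library. Their median level was 1.43 and 1.70 kb in the ASC libraries and 1.20 and 1.25 kb in the FISC libraries. Over 82 cytosolic ribosomal protein genes tested it was 2.28 and 2.69 kb in ASC and 1.81 and 1.80 kb in FISC, 38 of them rose (46.3%), and the median difference was 0.671 kb. Over 88 genes of the respiratory chain and the ATP synthase it was 1.71 and 1.92 kb in ASC and 1.42 and 1.41 kb in FISC, 22 rose (25%), and the median difference was 0.419 kb. No gene of either class fell, where 26.5% of all genes tested rose and 3.61% fell. After division by total covered length 19 of the 82 and 17 of the 88 were called lower, against 36.6% of all genes. Called higher were 2 and 3, against 9.19% of all genes. The median difference was then -0.318 kb for the cytosolic class and -0.237 kb for the respiratory one. Peaks in all 4 libraries stood at 97.4% of the 77 members. They stood at 91.1% of 90 cytosolic ribosomal protein genes and 88.5% of 96 respiratory chain and ATP synthase genes. Whether the classes differ was not tested.

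Markers of satellite cells were all covered, and some markers of other cell types were covered too. All 8 satellite cell markers, among them Pax7, Myf5 and Myod1, had peaks in all 4 libraries. Their summed level was 24.7 and 26.0 kb in ASC, against 23.7 and 25.3 kb in FISC. Of 8 markers each, 3 fibro-adipogenic, 2 endothelial, 2 myeloid, 2 lymphoid and 4 smooth muscle or pericyte genes were covered in at least 2 libraries. Col3a1, Dpt, Tek, Cldn5, Cd68, Spi1, Cd79a, Acta2 and Notch3 had peaks in all 4 libraries. No peak in any library stood in the windows of 5, 4, 5, 5 and 3 genes of these lists, among them Pdgfra, Pecam1, Cdh5, Ptprc and Cd3g. Of all markers, those of satellite cells included, Itga7, Vcam1, Ly6a and Notch3 rose, and Chodl, Dpt, Cd4, Pdgfrb and Abcc9 fell. Over all genes tested 26.5% rose and 3.61% fell. Of the 8 satellite cell markers 3 were higher and 3 lower in both ASC libraries than in both FISC libraries. The summed level of the myeloid list was 3.62 and 5.40 kb in ASC, against 2.60 and 2.36 kb in FISC, and that of the fibro-adipogenic list 5.14 and 6.49 kb in ASC, against 4.57 and 4.77 kb in FISC. For endothelial genes it was 1.22 and 1.78 kb in ASC, against 2.37 and 2.56 kb in FISC. For lymphoid genes it was 1.35 and 1.53 kb in ASC, against 1.98 and 1.71 kb in FISC, and for smooth muscle and pericyte genes 6.79 and 7.83 kb in ASC, against 7.37 and 6.37 kb in FISC. After division by total covered length 6 of the 8 satellite cell markers were called lower and 1 higher. In the fibro-adipogenic, endothelial, myeloid, lymphoid and smooth muscle or pericyte lists 1, 2, 0, 2 and 3 genes were then called lower. One fibro-adipogenic gene was called higher. Among all genes 36.6% were lower and 9.19% higher. The part of other cells in the differences was not tested.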

How the data were processed

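H3K27ac was measured in 4 libraries, 2 of ASC and 2 of FISC. The 4 input libraries have no peak list in the files used here and entered no comparison. Reads passed through bcl2fastq 2.19, BWA, Picard and MACS2 on mm10, per the submitters' processing notes, whose list gives neither their order nor their settings. The read depth of each library is not given in the sources used. Each deposited list holds the peaks of 1 library. In the deposited lists fold enrichment, a ratio, sets a peak's summit against the local background. The deposited significance is given as −log10 p and −log10 q values, and a deposited score repeats the −log10 q times 10 without its decimals. No 2 peaks of a list overlapped. Read depth changes how many peaks a caller finds and how wide they are, and it cannot be separated from condition in a list of peaks.

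Gene ends came from RefSeq genes on GRCm38.p6, without strand. The bases under peaks within 2 kb of either gene end were counted once each. Every gene with a peak in 2 or more libraries entered limma 3.58.1 in R 4.3.3 (eBayes with trend, linear scale, unscaled, Benjamini-Hochberg over all genes tested, threshold 0.05), and the fit was tested on simulated data. With 2 libraries against 2, an exact permutation test cannot go below p = 0.333 (2-sided), so that single values have no such test. Strand and start were taken from the promoter table of RefSeq for 68 members, the first start where several are listed, and 9 members were not matched there. A window of the start alone lay at the first end of the gene on its strand, or for those 9 at the end covered more. The members, role groups, lists and motifs were chosen with earlier results of these data known. Genes named are the 3 largest rises of each role group, the 5 smallest differences, members with no peak and the 2 largest calls of each list. One gene that this rule names is not reported here. Mrpl12, Mrps28, Mrpl55, Mrps18b, Mrps2, Mrpl46, Mrps11, Mrps36 and the genes listed as rises were named after their values were seen. Replicate numbers did not pair the libraries (correlation of their deviations across 12924 genes, −0.023). The window at the RefSeq start was chosen after seeing the data.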

Additional observations from a re-analysis of the deposited data

How the results depend on the processing

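The 20 rises and 0 falls among members stood within 1.5 times that count with stricter peaks, lists of equal length or number, windows of 1 or 5 kb, the start alone, the summit rule, joined peaks, another low-value filter or no trend (14 to 27 rises, 0 falls). At a fold enrichment of at least 5, 18.4% of members rose, against 26.5% of all genes. With 1 kb windows these shares were 19.2 and 15.5%, and with 5 kb windows 35.5 and 30.8%. The RefSeq start gave 18 rises among 68 members (26.5%), against 26.9% of all genes. With the replicate block 14 members rose (18.4%), 13 of them among the 20, against 23.2% of all genes. The replicate numbers do not pair the libraries. Division by total covered length gave 1 rise and 20 falls, where 9.19% of all genes rose and 36.6% fell, with a median difference of -0.251 kb over members. It put Mrpl36 at -0.380 kb (limma, adjusted p = 0.123) and Mrpl20 at -0.610 kb (limma, adjusted p = 0.0153). Testing every gene, covered or not, left 3 rises among members (3.90%), against 5.69% of all genes. Leaving out 1 library gave 2 to 23 rises. Over all genes the 3419 rises became 1908 at equal covered length, 1188 after division, 1912 with 1 kb windows, 1245 with no filter and 677 to 3530 without 1 library. The 467 falls became 282 at a fold enrichment of at least 5, 1580 at equal covered length, 4735 after division, 226 with 1 kb windows, 167 with no filter and 62 to 373 without 1 library. The cause was not tested. The lists give no read counts, so the depth behind a width is unknown.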
